A study of Drosophila melanogaster with 2 samples.

Results

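Genes for eukaryotic translation initiation factors were examined for binding of Atonal in Drosophila melanogaster embryos. The members are the 44 protein-coding genes whose annotated symbol starts with eIF, of 13945 protein-coding genes on the main chromosome arms of dm6. A gene was counted as having a peak where the summit of a peak lay within 500 bp of any of its annotated starts. By background knowledge of these genes, and not from these files, 7 were set apart as testis-type paralogs (eIF3d2, eIF3f2, eIF3g2, eIF4E3, eIF4E5, eIF4E7 and eIF4G2), 35 were taken as general factors, and 2 further cap-binding paralogs (eIF4E4 and eIF4E6) were left unclassified.

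The data are ChIP-seq peak lists from transgenic flies of the strain ato-GFP, whose Atonal carries an enhanced GFP tag, precipitated with an antibody against GFP. Whole embryos aged 0 to 18 h were used, so the stages and all cell types of the embryo are pooled and no peak can be placed in a cell type. There were 2 biological replicates and 1 group, with no mutant, no untagged strain and no other stage among the samples analysed here, and no input or mock sample was analysed here. A conservative list of 3009 peaks passed the authors' threshold on the irreproducible discovery rate (IDR), a measure of how well 2 replicates rank the same peak; tested on the file, all its peaks had a global IDR of at most 0.01. A ranked list of 161563 peaks, 1 row each, holds weaker ones too. A peak's signal is the authors' value, its scale is unstated, and it serves here to rank and describe peaks within a list. Without read counts in the lists, sequencing depth is unknown and counting intervals cannot be given.

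Initiation factors bring the small ribosomal subunit and the initiator tRNA to the start codon of an mRNA. The eIF4 factors bind the cap and unwind the leader, eIF3 is the large scaffold on the small subunit, eIF2 carries the initiator tRNA and eIF2B recharges eIF2 with GTP, while eIF1, eIF1A, eIF5, eIF5B and eIF6 act in scanning, start codon choice and subunit joining. Drosophila has extra copies of several of these genes, some known for use in the male germ line. Atonal is a basic helix-loop-helix proneural factor that binds E-boxes, known for specifying chordotonal organs and the founding photoreceptors. The DRE (TATCGATA) is the element bound by DREF at many promoters of broadly used Drosophila genes.

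The bases just before the start are shown for members with strong peaks, for the peak-bearing paralogs, and for members without a conservative peak, because the strongest summits of the 8 peak-bearing genes shown lie in these stretches. Each runs 5′ to 3′ on the strand of the gene and ends at the base before the outermost start (RefSeq genome, dm6). It holds up to 100 bases and is shorter where another gene's exon begins. Capitals mark TATCGATA, CGATA on either strand (written TATCG on the other), and CANNTG, the general E-box.
eIF3f1, peak signal 408 (chr3R:4714183-4714282, minus strand): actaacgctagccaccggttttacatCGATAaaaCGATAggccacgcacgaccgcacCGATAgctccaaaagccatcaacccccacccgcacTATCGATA
eIF2gamma, peak signal 354 (chr3R:15263459-15263551, minus strand): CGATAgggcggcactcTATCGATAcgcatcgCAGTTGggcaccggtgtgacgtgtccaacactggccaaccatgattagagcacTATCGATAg
eIF3a, peak signal 305 (chr3R:4433896-4433964, minus strand): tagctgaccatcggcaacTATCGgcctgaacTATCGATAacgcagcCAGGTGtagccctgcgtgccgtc
eIF4E6, peak signal 174 (chr3R:29027175-29027235, minus strand): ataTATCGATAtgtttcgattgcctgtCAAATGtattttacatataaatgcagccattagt
eIF2Balpha, peak signal 167 (chr3R:29935889-29935977, minus strand): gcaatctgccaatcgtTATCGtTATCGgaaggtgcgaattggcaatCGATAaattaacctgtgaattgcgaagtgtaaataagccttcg
eIF4E1, peak signal 97.5 (chr3L:9402461-9402560, minus strand): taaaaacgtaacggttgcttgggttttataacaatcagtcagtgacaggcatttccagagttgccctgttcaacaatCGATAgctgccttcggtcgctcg
eIF2alpha, peak signal 93.8 (chrX:16446994-16447093, minus strand): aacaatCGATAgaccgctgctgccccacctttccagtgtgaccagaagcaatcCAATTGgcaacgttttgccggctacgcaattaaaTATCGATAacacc
eIF4G2, peak signal 69.5 (chr3R:23819238-23819337, minus strand): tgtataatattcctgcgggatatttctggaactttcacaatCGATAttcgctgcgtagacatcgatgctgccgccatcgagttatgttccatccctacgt
eIF4A, ranked only, 164.8 (chr2L:5981664-5981763, plus strand): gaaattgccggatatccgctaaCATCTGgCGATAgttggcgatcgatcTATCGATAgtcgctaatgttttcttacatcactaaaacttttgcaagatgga
eIF3l, ranked only, 30.7 (chr3L:12146098-12146197, minus strand): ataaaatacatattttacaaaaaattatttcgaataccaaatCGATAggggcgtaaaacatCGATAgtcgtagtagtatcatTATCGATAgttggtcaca
eIF3d2, ranked only, 21.5 (chr3R:12195012-12195111, minus strand): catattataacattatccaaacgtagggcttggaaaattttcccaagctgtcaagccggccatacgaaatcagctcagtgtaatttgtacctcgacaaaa
eIF4E3, ranked only, 21.1 (chr3L:8229124-8229223, plus strand): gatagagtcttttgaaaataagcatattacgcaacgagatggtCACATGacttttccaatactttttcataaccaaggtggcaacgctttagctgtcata
eIF4E7, ranked only, 19.2 (chrX:1162390-1162489, minus strand): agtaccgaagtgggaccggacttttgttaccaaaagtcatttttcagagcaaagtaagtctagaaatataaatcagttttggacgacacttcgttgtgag
eIF3d1, no ranked row (chr3R:23679939-23680038, plus strand): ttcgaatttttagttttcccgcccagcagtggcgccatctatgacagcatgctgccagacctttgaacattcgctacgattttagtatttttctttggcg

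Of the 44 eIF genes, 19 (43.2%) had a conservative peak at a start, against 21.8% of all protein-coding genes. By class, 17 of the 35 general factors had one (48.6%). Among the testis-type paralogs 1 of 7 did (14.3%), eIF4G2. Of the unclassified pair, eIF4E6 had a peak and eIF4E4 did not. With that pair taken as testis-type the class had 2 of 9 (22.2%). The testis-type count is thus small and near the share of all genes. Since the members are genes of 1 experiment and not replicates of a condition, these shares are descriptions and no test was run on them.

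The ranked list gives a value for members below the threshold too. Each gene was given its strongest ranked peak within 500 bp of a start. The median signal was 48.0 over the 41 eIF genes with such a row and 35.4 over the 12517 protein-coding genes with one. By class it was 21.5 over the 7 testis-type paralogs, with a range of 18.8 to 69.5, and 61.5 over 32 general factors, with a range of 17.0 to 408. The ranges of the classes overlap. The 3 members without a row, eIF3d1, eIF4B and eIF4G1, are all general factors, so leaving them out affects that class alone. Of the testis-type paralogs 6 of 7 lay below the median protein-coding gene, whereas 25 of the 32 general factors lay above it. The order held in each replicate's own ranked list: the testis-type medians were 9.0 in replicate 1 and 15.9 in replicate 2, the general medians 40.9 and 34.3, and the medians of all genes 20.9 and 20.3.

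**Figure D1:**
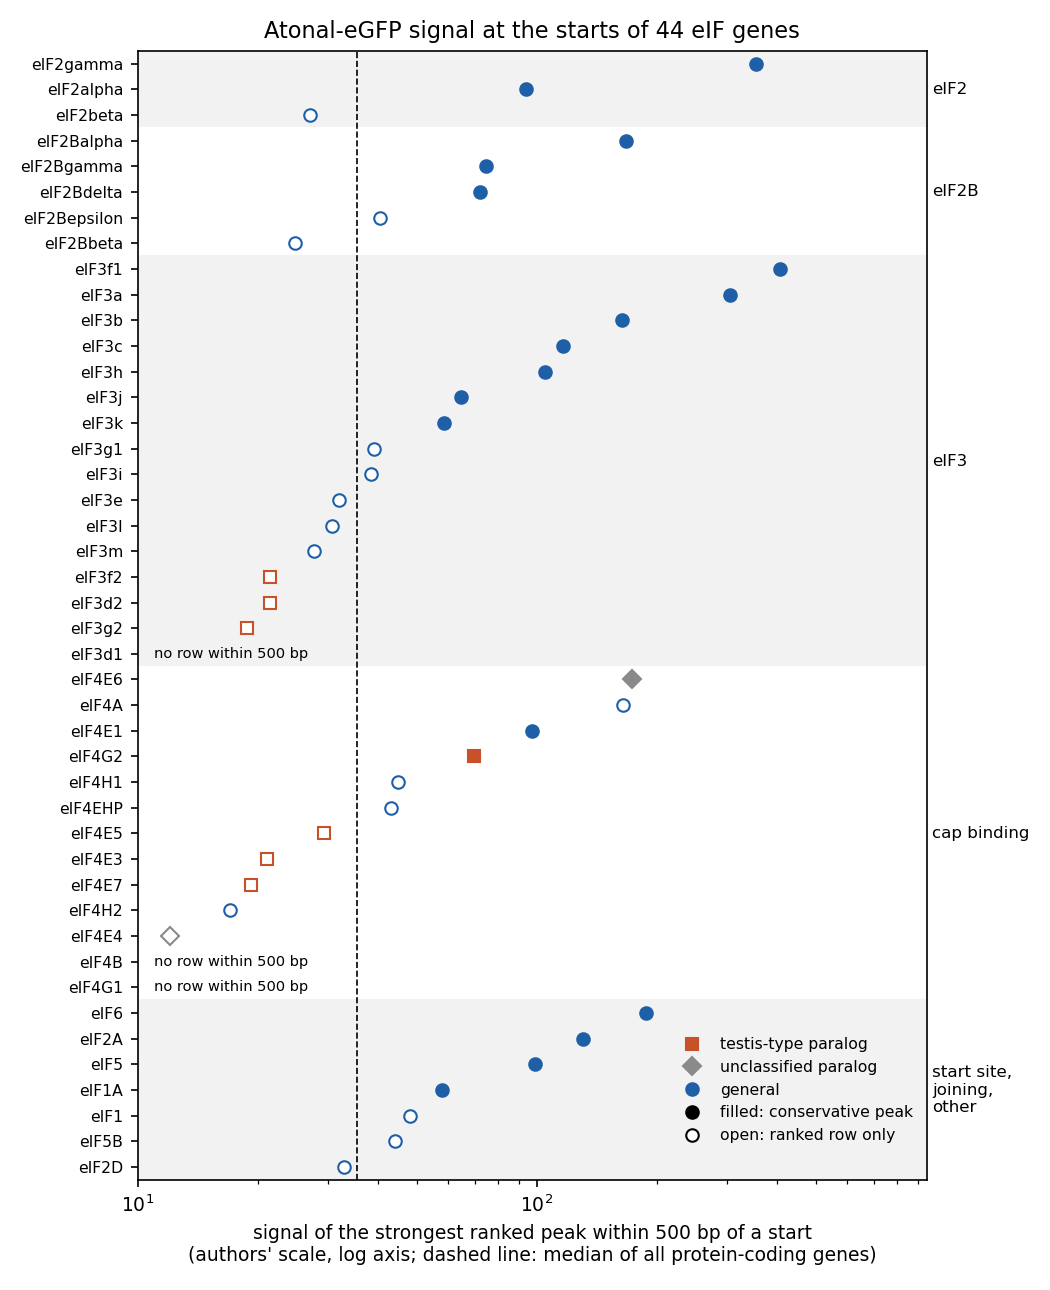
Signal of the strongest ranked peak within 500 bp of a start for each of the 44 eIF genes, on a log axis and grouped by complex; filled symbols are genes with a conservative peak, open symbols genes with a ranked row alone, and the dashed line is the median of all protein-coding genes (35.4). The testis-type paralogs sit to the left of the line except eIF4G2, and eIF3f1, eIF2gamma and eIF3a lie farthest to the right.

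The initiator tRNA carrier eIF2 had conservative peaks at 2 of its 3 subunit genes. eIF2gamma, the subunit that binds GTP and the tRNA, had the second strongest peak of any member, with a signal of 354 and rank 41 of the 3009 conservative peaks. Its peak (chr3R:15263377-15263610) had its summit 38 bp upstream of the start, and the signals in the replicates' own ranked lists were 174 in replicate 1 and 177 in replicate 2. The replicates thus differed little at this gene. A weaker conservative peak with a signal of 58.9 lay 459 bp inside the gene, in an intron. eIF2alpha, the subunit that stress kinases phosphorylate, had a signal of 93.8 with its summit 24 bp upstream (chrX:16446849-16447184). Here the replicates stood apart, at 66.6 in replicate 1 and 29.1 in replicate 2, the largest excess of replicate 1 among the 19 peak-bearing members. eIF2beta had a ranked row of 27.0, below the median gene.

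Of the 5 genes of eIF2B, the exchange factor for eIF2, 3 had a conservative peak. eIF2Balpha, a subunit of the regulatory part, reached 167 with its summit 67 bp upstream (chr3R:29935787-29936122), with 97.9 in replicate 1 and 62.2 in replicate 2. eIF2Bgamma, of the catalytic part, had 74.8 in the paired list, with 49.6 in replicate 1 and 31.4 in replicate 2. eIF2Bdelta, of the regulatory part, had 72.2, with 41.8 and 40.2 in replicates 1 and 2. The catalytic subunit gene eIF2Bepsilon had a ranked row of 40.5 that did not pass the threshold, and eIF2Bbeta one of 24.8. The next conservative summit for eIF2Bbeta lay 652 bp upstream with a signal of 54.5, outside the 500 bp limit. On the inside of that limit were eIF5, whose strongest summit lay 447 bp upstream, and the intronic peak of eIF2gamma.

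eIF3 was the largest group, and its ranked values ran from 18.8 to 408. Their median was 39.1 over all eIF3 genes with a row and 61.5 over the general ones. Both lay below the medians of eIF2 (93.8) and eIF2B (72.2). Of the 13 general subunit genes, 7 had a conservative peak, and over all 16 eIF3 genes the count was 7 too, since none of the 3 paralogs had one. eIF3f1, an MPN-domain subunit, had the strongest peak of all eIF genes (chr3R:4714103-4714333), with a signal of 408, rank 22 of 3009 and a summit 44 bp upstream of its only annotated start. Its signal was 259 in replicate 1 and 167 in replicate 2. eIF3a, a core subunit of the scaffold, had 305 and rank 78 (chr3R:4433866-4434037), with 168 in replicate 1 and 135 in replicate 2. Both genes were high in each replicate, above every other eIF3 gene.

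The other eIF3 genes were weaker. eIF3b, a core subunit near the mRNA channel, had 164 with 86.3 and 79.3 in replicates 1 and 2. eIF3c, the core partner of eIF3a, had 116 with 64.4 in replicate 1 and 49.8 in replicate 2, and a second, weaker peak of 31.5 at 5 bp after a start. eIF3h, the other MPN-domain subunit, had 105 with 52.6 and 51.8 in replicates 1 and 2. The loosely attached subunit gene eIF3j had 64.5, and eIF3k had 58.6. These last are the only peak-bearing members whose strongest peak overlapped no peak in either replicate's own thresholded list, although their ranked signals were close in the replicates, at 36.5 and 34.3 for eIF3j and 32.5 and 29.3 for eIF3k. The subunit genes eIF3g1, eIF3i, eIF3e, eIF3l and eIF3m had ranked rows between 27.7 and 39.1. eIF3d1 had no ranked row within 500 bp, and the nearest ranked summit lay 588 bp away.

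Among the cap-binding and unwinding factors a conservative peak was found at 1 of 7 general genes. eIF4E1, the main cap-binding protein, had a signal of 97.5 with its summit 49 bp upstream of one of its 4 starts (chr3L:9402341-9402676), with 47.2 in replicate 1 and 58.3 in replicate 2. eIF4A, the helicase of the cap complex, had a ranked row as strong as the peaks of eIF3b and eIF2Balpha, with a signal of 164.8, rank 503 in the ranked list and a summit 74 bp upstream. Its signal was 99.4 in replicate 1 and 69.9 in replicate 2. The row's −log10 global IDR of 4.12 is past the threshold of the conservative list, yet neither that list nor any other thresholded list holds a peak there. It is 1 of 124 ranked peaks past the threshold that the conservative list does not hold, for a reason that the sources used here do not give. If such peaks are counted, 20 eIF genes (45.5%) have a peak, against 22.3% of all protein-coding genes counted the same way.

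CG7483, a related helicase gene that RefSeq lists with the synonym eIF4AIII and that is no member by its symbol, had a conservative peak of 188 at 19 bp upstream, with 105.0 and 81.4 in replicates 1 and 2. It is given here after its values were seen.

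The remaining general cap factors had no conservative peak. eIF4H1, a helper of eIF4A, had 44.8, eIF4H2 had 17.0, and eIF4EHP, a cap-binding protein known as a repressor, had 43.1. The scaffold gene eIF4G1 and the helicase helper eIF4B had no ranked row within 500 bp, with the nearest ranked summits 12373 and 51368 bp away. A gap of that size leaves no ranked peak of any strength near these starts, so the files give no value there.

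The factors of scanning, start choice and subunit joining had conservative peaks at 4 of 7 genes. eIF6, which keeps the large subunit from joining early, had 187 with its summit 15 bp after the start. It was the only one of the 19 members with a conservative peak whose strongest summit lay downstream of the gene's nearest start. Its signal was 79.7 in replicate 1 and 126 in replicate 2, and a further conservative peak of 209.8 lay 827 bp upstream, outside the limit. eIF2A, an alternative carrier of initiator tRNA, had 131, with 63.1 and 67.5 in replicates 1 and 2. eIF5, which triggers GTP hydrolysis by eIF2, had 98.8 at 447 bp upstream and a second peak of 62.7 at 55 bp after its start. eIF1A, a scanning factor, had 58.0, the weakest peak among the 19, with 39.9 and 41.0 in replicates 1 and 2.

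Its partner in scanning, eIF1, passed in each replicate alone and not in the conservative list. Replicate 1's thresholded list placed a peak of 48.0 at 369 bp upstream and replicate 2's a peak of 44.8 at 5 bp after the start, so the summits lay apart. The best paired row had a −log10 global IDR of 0.17. eIF2D, which acts in reinitiation, had a ranked row of 32.8. eIF5B, the GTPase of subunit joining, had a ranked row of 44.1 and a −log10 global IDR of 1.59, the closest below the threshold of all members. Just above it were eIF4G2 at 2.04 and eIF3k at 2.16.

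The testis-type paralogs could be set beside their general counterparts family by family. eIF3f2 had 21.5, against 408 for eIF3f1. In the replicates eIF3f2 had 2.17 and 19.5, which is the widest split between replicates among the members with both values, while eIF3f1 had 259 and 167. eIF3g2 had 18.8, against 39.1 for eIF3g1, neither with a conservative peak. eIF4E3, eIF4E5 and eIF4E7 had 21.1, 29.3 and 19.2, against 97.5 for eIF4E1. In these families the paralog had the lower value. None of these paralog rows passed the threshold, with a −log10 global IDR of 0.06 to 0.23. Their summits lay downstream of the start by 123 bp (eIF3f2), 461 bp (eIF3g2), 251 bp (eIF4E3) and 407 bp (eIF4E5). That of eIF4E7 lay 100 bp upstream. The row of eIF3g1, also below the threshold at 0.95, lay 286 bp downstream.

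In the other families no order can be given, because the general gene has no ranked row within 500 bp. eIF3d2 had 21.5, and eIF3d1 had no row. eIF4G2 had a conservative peak of 69.5 at 83 bp upstream (chr3R:23819152-23819487), and eIF4G1 had no row. The peak of eIF4G2 rested more on replicate 2, with 24.2 in replicate 1 and 55.8 in replicate 2, and it overlapped a peak in the thresholded list of replicate 2 alone. Without replicate 2, no testis-type paralog had a peak. Of the unclassified pair, eIF4E6 had 174 with 78.6 and 101 in replicates 1 and 2, above eIF4E1 in each. Its summit lay 57 bp from eIF4E6 and 5 bp from another gene, CG1951, so the peak cannot be given to eIF4E6 alone. eIF4E4 had 12.03, the lowest ranked value of any member.

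**Figure D2:**
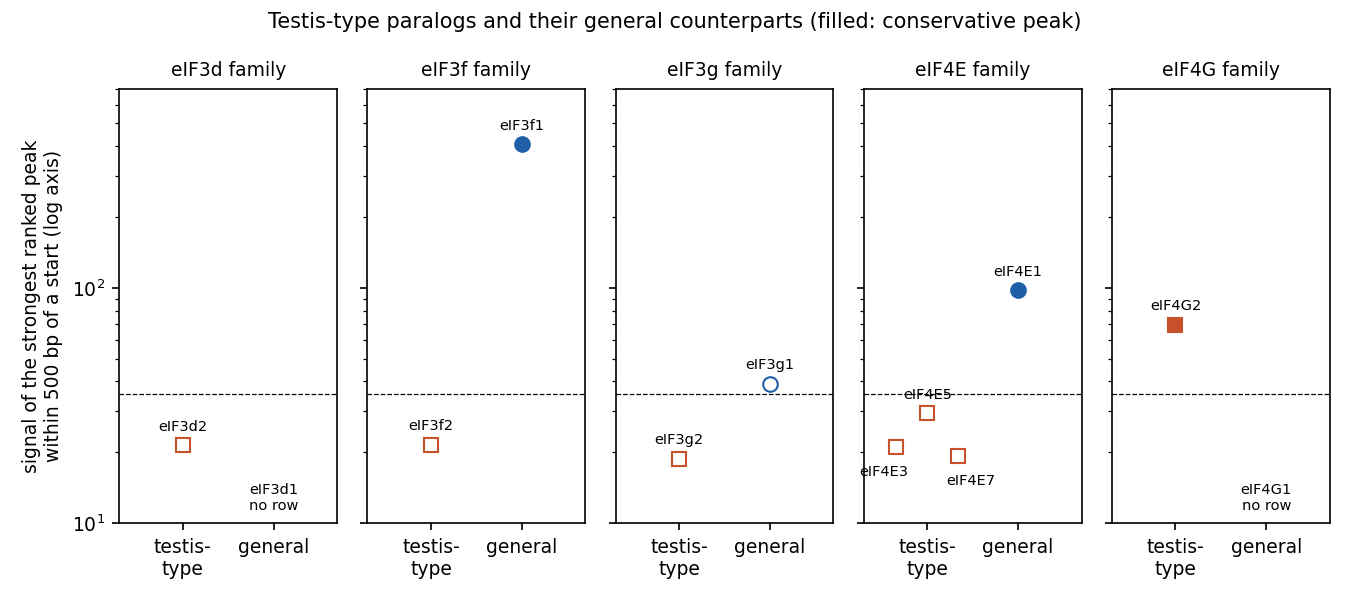
Signal of the strongest ranked peak for the testis-type paralogs (left in each panel) and their general counterparts (right), by gene family on a shared log axis; filled symbols have a conservative peak, and the dashed line is the median of all protein-coding genes. The paralog is lower in the eIF3f, eIF3g and eIF4E families, where no paralog row passed the threshold. eIF3d1 and eIF4G1 have no ranked row to set beside eIF3d2 (21.5) and eIF4G2 (69.5).

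The peak-bearing members had passed a threshold on how well the replicates rank a peak, so closeness of the replicates is partly set by that choice. The log2 ratio of replicate 1 to replicate 2 had a median of 0.06 over the 19 members and ran from -1.21 at eIF4G2 to 1.19 at eIF2alpha. It was above 0 at 11 and below at 8. Over all genes with a conservative peak the median was 0.11. The strongest peak overlapped a peak in both replicates' own thresholded lists for 14 of the 19 members (73.7%), against 53.4% of all genes with a conservative peak. It overlapped none in either for 2 (eIF3j and eIF3k), against 18.8% of all such genes. It overlapped one in replicate 1 alone for eIF2Bgamma and eIF2alpha. The replicate lists are of unequal length, with 2501 peaks in replicate 1 and 1737 in replicate 2.

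**Figure D3:**
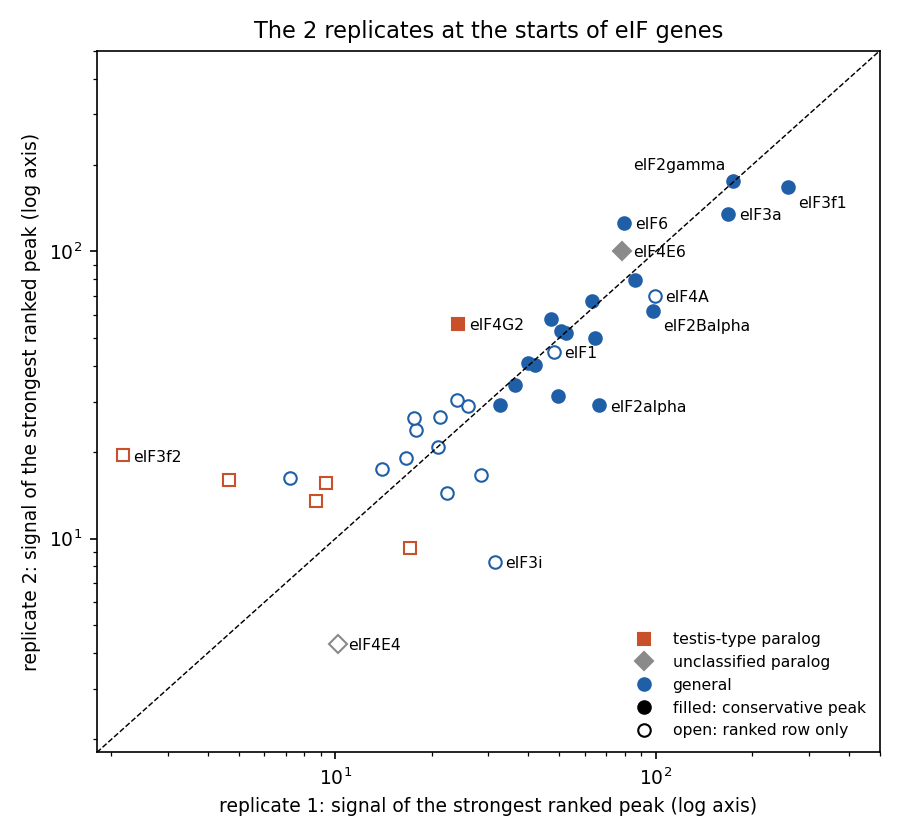
Signal of each eIF gene's strongest ranked peak in replicate 1 (x) and replicate 2 (y), both on log axes, with equality as a dashed line; symbols as in the plot by complex. Most peak-bearing members lie near the line, with eIF4G2 above it (24.2 and 55.8) and eIF2alpha below it (66.6 and 29.1), and the widest scatter is among the weak values.

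The summits sat close to the starts. Over the 19 members the strongest summit lay at a median of 51 bp upstream, with quartiles of 72 and 31 bp upstream, and 16 of 19 (84.2%) lay within 100 bp. Over all protein-coding genes with a peak the median was 38 bp upstream and 70.5% lay within 100 bp. By position 18 of the 19 summits were upstream of the nearest start of the gene, compared with 77.1% over all genes. At eIF2A, eIF3h and eIF3j that start is an internal one. Their summits thus lie inside the gene, downstream of its outermost start. eIF3b, eIF3c and eIF5 were the members beyond 100 bp.

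**Figure D4:**
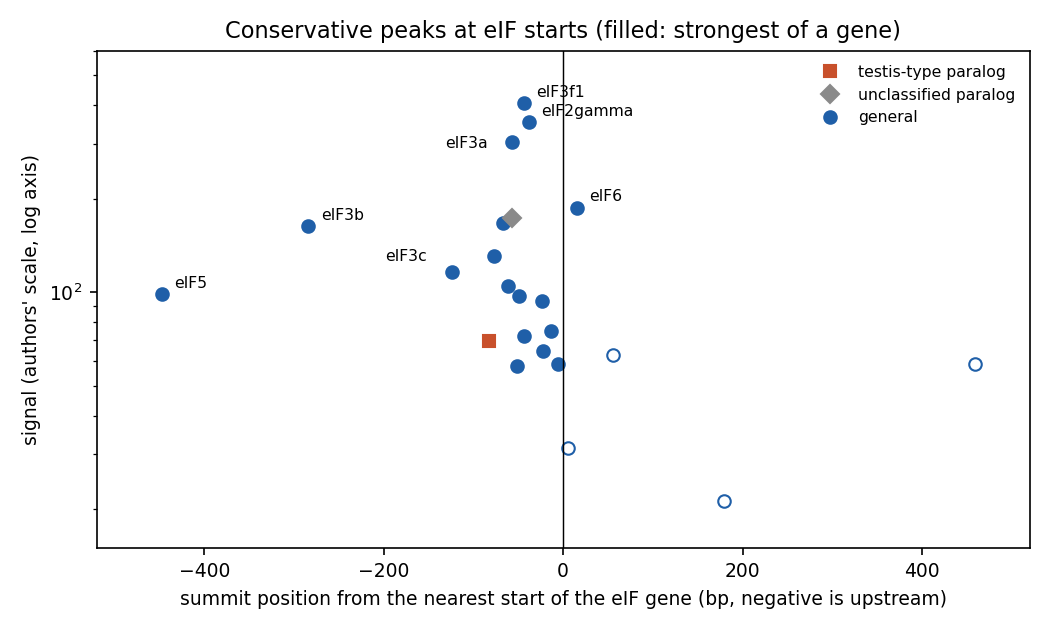
Position of each conservative summit from the nearest start of the eIF gene (x, in bp, negative upstream) against its signal (y, log axis); filled symbols are the strongest peak of a gene and open symbols are further peaks of eIF2gamma, eIF3c, eIF3j and eIF5. The strongest summits gather between the start and 100 bp upstream of it, with eIF5 at 447 bp and eIF3b at 284 bp upstream.

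Many of these starts face another gene, and a peak between them cannot be given to either. At 11 of the 19 members the strongest summit was also within 500 bp of a start of another protein-coding gene. Over all protein-coding genes with a conservative peak this was so at 1572 of 3034, so it is common and not particular to the eIF genes. The summit was nearer to the other gene at 7 of the 11 eIF genes, namely eIF2Balpha (Vps13B), eIF2Bdelta (roh), eIF3a (CG1074), eIF3b (Patronin), eIF3h (senju), eIF4E6 (CG1951) and eIF5 (exd). For eIF3b the summit was 63 bp from Patronin and 284 bp from eIF3b, and for eIF5 it was 47 bp from exd and 447 bp from eIF5. At eIF2gamma and eIF4G2 the start is shared with another gene, Su(var)3-9 and CG33111, so the distances are equal, and eIF2gamma also faces Set at 56 bp. eIF5 shares its start with CG46312 in the same way, at both of its peaks. At eIF1A and eIF3c the eIF gene was the nearer one, with Vps39 and CCHa1-R beyond. The other 8 peaks, among them those of eIF3f1, eIF6, eIF2A, eIF4E1 and eIF2alpha, had no second gene in reach.

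Genes with a neighbouring start had peaks more often. Of the eIF genes with another coding start within 500 bp of their own 10 of 19 had a conservative peak, against 37.0% of all protein-coding genes with such a neighbour. Of those without one 9 of 25 did, against 15% of all genes without. The eIF genes thus stood above all genes in both strata. With every peak that lies near a second gene left out, 10 eIF genes kept one (22.7%), against 10.8% of all protein-coding genes. None of the 10 was a testis-type paralog, and eIF2gamma and eIF3c were kept through their second, weaker peaks.

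The share of eIF genes with a peak stayed above that of all protein-coding genes under each other way of counting. With the other thresholded list that combines both replicates it was 17 of 44 (38.6%), against 23.0%. In the thresholded list of replicate 1 alone it was also 17 (38.6%), against 18.5%, and in that of replicate 2 alone 16 (36.4%), against 14.1%. With the strongest 50% of the conservative peaks it was 13 (29.5%), against 12.9%, and 12 of these 13 genes were general factors.

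Changes of distance and of the rule for assigning a peak moved it as follows. A limit of 250 bp gave 18 (40.9%), against 19.1%, and a limit of 1000 bp 20 (45.5%), against 24.3%. Where the peak interval had to cover a start it was 18 (40.9%), against 17.2%. With each peak given to its nearest start alone it was 13 (29.5%), against 16.8%, and with the outermost start of each gene alone 19 (43.2%), against 20.4%. The smallest shares came from the rules that take peaks away from starts facing another gene or keep the strong peaks alone.

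**Figure D5:**
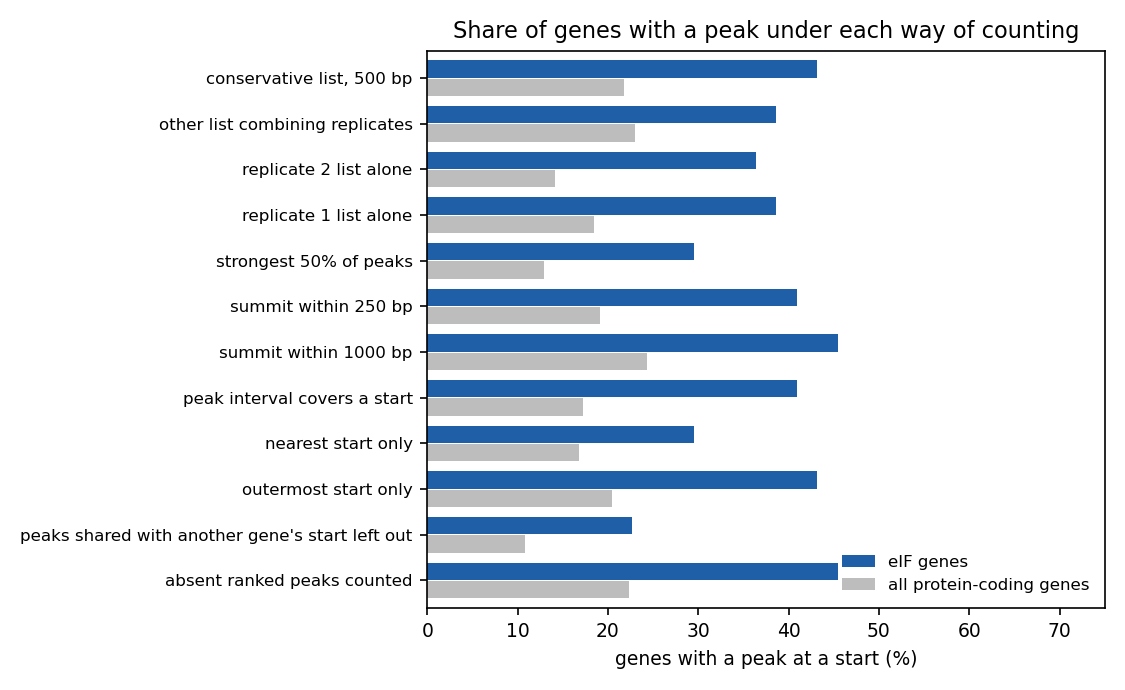
Share of genes with a peak at a start (x, %) for the eIF genes (upper bar) and all protein-coding genes (lower bar), for the conservative list and for each other list, distance or rule for assigning peaks. The eIF bar is the longer one in each, from 45.5% with 1000 bp allowed or the absent ranked peaks counted, to 22.7% with peaks shared between genes left out.

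The letters at the starts of the members were counted as a description of the sequences printed above and of the others. At the summits of the 19 members, TATCGATA lay within 50 bp at 8 (42.1%), against 18.1% of the 3005 conservative peaks on the main arms. Those 3005 were taken wherever they lie, whereas each of the 19 is a gene's strongest peak within 500 bp of a start. The shares at the summits are thus set against an unlike background. CGATA, which lies inside TATCGATA, was within 50 bp at 16 of 19 (84.2%), against 53.7%. The 8 with TATCGATA were eIF3f1, eIF2gamma, eIF3a, eIF6, eIF4E6, eIF2A, eIF5 and eIF2alpha, and the element lay a median of 21 bp from the summit. Their median signal was 180.5, and that of the 11 without it 74.8. Over all conservative peaks the same medians were 127 and 82.2. A match is a run of letters and does not show that a protein was bound there.

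The E-box was less marked. CANNTG lay within 50 bp of the summit at 9 of 19 members (47.4%), against 38.7% of all conservative peaks, and CAGCTG at 2 (10.5%), eIF2Bgamma and eIF3h, against 9.28%. At the 3 strongest peaks the E-box letters within 50 bp were CAACTG for eIF2gamma and CACCTG for eIF3a, as read on the forward strand of the genome, and none for eIF3f1.

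In the promoters, taken as 250 bp before to 50 bp after the outermost start, TATCGATA was found at 8 of the 19 members with a peak (42.1%), against 27.8% of all genes with a peak and 9.36% of all genes. It was also at 4 of the 18 general members without a conservative peak (22.2%), namely eIF2Bbeta, eIF3l, eIF4A and eIF4B, and at 1 of the 9 testis-type and unclassified paralogs, eIF4E6. The letters of the initiator, TCAGT, were at 2 of the 19 (10.5%), against 43.2% of all genes with a peak. CTTTT on the strand of the gene within 10 bp of a start, letters found at TCT-type starts of translation genes, was at 7 of the 44 members (15.9%), against 5.83% of all genes. Of these, eIF1A, eIF3c and eIF3f1 had a conservative peak and eIF3e, eIF3g1, eIF3i and eIF4A did not. CGATA was in the promoters of 14 of the 19 members with a peak (73.7%), against 75.6% of all genes with a peak. Beside these other genes with a peak at a start, its share was not raised. The higher share at the summits was set against conservative peaks at any place, and a like background was not counted there. GTCACAC lay within 50 bp of the summit at 4 of the 19 (21.1%), against 5.59% of all conservative peaks, the same unlike background. TATAAA was there at 3 (15.8%), against 7.29%, and GAGAG at 1 (5.26%), against 14.1%. In the promoters of the 19 these 3 were at 15.8%, 42.1% and 15.8%. Over all genes with a peak the shares were 13.4%, 42.7% and 25.3%. In all, 9 motifs were searched, each on both strands except CTTTT.

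Genes that act beside the factors had peaks too. Of 19 partners and regulators of initiation, 10 had a conservative peak (52.6%), against 21.8% of all protein-coding genes. The strongest were at NAT1, an eIF4G-like factor (246), at Paip2, a repressor of the poly(A)-binding protein (223), at bel, a DEAD-box helicase (175), and at MCTS1, a reinitiation factor (166.0). PPP1R15, which directs dephosphorylation of eIF2alpha, had 153 and the poly(A)-binding protein gene pAbp had 121. Of 9 genes for elongation and release factors 5 had a peak (55.6%), at eEF1gamma (180.3), eEF2 (175), eRF1 (146.5), eEF1alpha1 (85.4) and eEF1beta (59.9). Both lists, like the eIF genes, stood above the share of all genes, and no difference between the 3 lists was tested. The lists were chosen with earlier results of these data known, so their shares are descriptions.

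By chromosome arm the counts are small. On 2R, 7 of the 9 eIF genes had a peak (77.8%), against 23.1% of all genes of that arm. On 3R it was 7 of 13 (53.8%), against 21.5%. On 3L it was 2 of 11 (18.2%), against 20.4%. Without a peak there were the paralogs eIF4E3, eIF4E4 and eIF4E5 and the general genes eIF1, eIF2beta, eIF3e, eIF3l, eIF4B and eIF5B. On X it was 2 of 7 (28.6%), against 24.0%, and on 2L 1 of 3 (33.3%), against 20.5%. The single gene on the fourth chromosome, eIF4G1, had none, where 8.75% of all genes did.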

How the data were processed

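ChIP-seq of Atonal-eGFP from 2 biological replicates was analysed from 8 deposited peak lists on dm6, per the labels, which also give sonication to 200 to 800 bp. The signal of each peak and the −log10 of its global IDR are the authors' deposited values. The labels name a possible control. Whether peaks were called against it, the aligner, the peak caller and the signal's scale were not given in the sources used here. The conservative list and the ranked list pairing the replicates were the main ones, and each replicate's own lists gave the values by replicate. In the paired ranked list the replicate columns are not named and were not used as such.

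Transcript starts of protein-coding genes were taken from the Ensembl 115 annotation, and bases were read from the dm6 genome of RefSeq. A summit within 500 bp of any start gave a gene its peak. Peaks were read with Python 3.11.15 and numpy 2.4.6, and the assignment of peaks was tested on peaks planted at known distances from starts. Counts stand beside the same over all protein-coding genes, with no test, since 1 group of 2 samples allows none. Members, classes and gene lists were chosen with earlier results of these data known, and the classes and lists come from background knowledge. Of the 10 elongation and release genes written down 9 matched a symbol. Named were the eIF genes with a conservative peak, the paralogs, up to 6 eIF genes without one with the highest ranked signal, up to 6 genes of each other list and genes sharing a summit. The other eIF genes without a peak are given too, outside that rule, so that every member has its value.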

Additional observations from a re-analysis of the deposited data

How the results depend on the processing

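No paired analysis was possible because the samples form 1 group. The number of eIF genes with a conservative peak stayed between 13 and 20 under the other lists, distances and rules, apart from 10 with peaks shared with another gene's start left out, where the general factors also had 10, the testis-type paralogs 0 and the partners of initiation 6. Without a replicate it ran from 16 to 17 for the eIF genes, 14 to 16 for the general factors, 0 to 1 for the testis-type paralogs, 8 to 9 for the partners and 3 to 5 for the elongation and release factors. With the strongest 50% of peaks the testis-type count was 0 and the elongation and release count 3, and it was also 3 where the peak interval had to cover a start. With eIF4E4 and eIF4E6 taken as testis-type, that class had 2 of 9 (22.2%), and with only 5 paralogs in it 1 (20.0%), against 21.8% of all genes. The median ranked signal of the general factors was 34.3 to 40.9 in the lists of 1 replicate, 44.8 with each peak given to its nearest start alone and 39.4 with shared peaks left out; that of the testis-type paralogs was 9.0 to 15.9 in the lists of 1 replicate, which have their own scale. Counting the ranked peaks past the threshold but not in the conservative list was chosen after seeing the data. The strongest 50% and the interval rule could not be applied to the ranked medians. The cause of these shifts was not tested. Without read counts, depth is unknown, and a gene without a peak may have one below what these lists resolve.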
